A study of Mus musculus with 23 samples.

Results

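Translation initiation factors and the proteins that bind eIF4E were described in *longissimus dorsi* (LD), a back muscle, and tongue (TN) of mice kept under 3 housing conditions. The members were all probe sets of an Affymetrix mouse gene expression array whose platform annotation names a single gene with a symbol starting with *Eif*. By this rule 103 of the 22626 probe sets were members, and they represent 42 genes. A probe set is a group of short probes for 1 or more transcripts, and 28 of the 42 genes had more than 1 probe set. Of the members, 16 end in x_at, a type that can also bind related transcripts. The rule used no measured value. A further 5 *Eif* probe sets name several genes and were left out, among them 3 shared by *Eif3j1* and *Eif3j2*, and no probe set of *Eif4ebp3* was a member.

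All mice were C57/BL6 males by the sample labels, and the methods give an age of 19–20 weeks. BF mice were flown on the Bion M1 biosatellite for 30 days. BG mice spent 30 days in the biosatellite habitat on the ground, and FC mice spent the same time in an animal facility. LD was sampled in 5 BF, 5 BG and 5 FC mice and TN in 3 BF, 3 BG and 2 FC mice, with 1 array per sample. The methods place tissue sampling of the flown mice 12–14 h after landing, so flight, landing and the hours after it cannot be told apart. Whether LD and TN samples share animals is not given by the labels.

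Translation of most mRNAs starts when eIF4F binds the cap at the end of the message. This complex joins the cap-binding protein eIF4E, the scaffold eIF4G and the helicase eIF4A, which is aided by eIF4B and eIF4H. The many-subunit factor eIF3 bridges eIF4G and the small ribosomal subunit, and eIF2 carries the initiator tRNA in a ternary complex with GTP that the exchange factor eIF2B renews. Both steps are regulated: 4E-BP proteins sequester eIF4E until the kinase complex mTORC1 phosphorylates them, and the eIF2 kinases (*Eif2ak1* to *Eif2ak4*, known as HRI, PKR, PERK and GCN2) phosphorylate eIF2 under stress. In skeletal muscle this regulation is a known control point of protein synthesis and fibre mass.

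The arrays had medians of 6.42–6.61 on the log2 scale of the deposited values, on which 1 unit is a 2-fold difference. Around its group mean over all probe sets, an array had an SD of 0.103–0.356. The widest was BG replicate 5 of LD, with an SD of 0.311 over the members alone. The calls it decides in LD BF vs. BG, in LD FC vs. BG and in the difference between the muscles are given with and without it. Muscle fibre genes (10 of 10 measured) averaged 13.8–14.1 per array in LD and 12.3–13.3 in TN. Genes of oral epithelium (8 of 8) averaged 4.92–5.27 in LD and 11.8–12.2 in TN, so that the TN samples also held RNA with an epithelial profile. In bulk tissue, a different number of cells of a type and a different amount of RNA per cell cannot be told apart.

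The test of limma compared the groups over all probe sets, and a probe set passed at an adjusted p under 0.05. In LD, 17 of the 103 members passed in BF vs. BG, 16 of them higher and 1 lower in BF, beside 10.2% of all probe sets (6.41% higher and 3.83% lower). Of the 11313 probe sets at or above the median level, fitted alone, 19.8% passed, so the share depended on level. The median log2 change of the members was 0.09, and that of all probe sets was −0.03. These 17 probe sets came from 9 genes with a higher and 1 gene with a lower probe set. By role, 6 of 9 probe sets of eIF4E-binding proteins, 7 of 26 of eIF3, 2 of 24 of eIF4, 1 of 14 of the ternary complex and 1 of 9 of the eIF2 kinases passed, whereas 0 of 12 scanning factors, 0 of 6 eIF2B and 0 of 3 eIF5A and eIF6 probe sets did (3, 0 and 0 at an unadjusted p under 0.05). The count depended on single arrays. It was 27 without BG replicate 5, beside 17.1% of all probe sets. Then *Eif2s3x* 1421895_at no longer passed (adjusted p = 0.0536), whereas *Eif5* 1454664_a_at (0.41, adjusted p = 0.00212), *Eif5b* 1434605_at (0.37, adjusted p = 0.0258), *Eif4h* 1438554_x_at (0.44, adjusted p = 0.0045), *Eif4e2* 1435803_a_at (0.40, adjusted p = 0.012), *Eif3f* 1452285_a_at (0.32, adjusted p = 0.0212), *Eif4e3* 1417978_at (0.45, adjusted p = 0.0482), *Eif4g2* 1415863_at (0.25, adjusted p = 0.0482), *Eif2s2* 1417713_at (−0.32, adjusted p = 0.00643) and the 3 *Eif4e* probe sets did. The count was 9 without BG 1, 10 without BG 4, 10 without BF 3, 11 without BG 2 and 11 without BF 5. With all arrays, the 4 *Eif4e2* probe sets ran from −0.315 to 0.326 in this comparison.

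**Figure D1:**
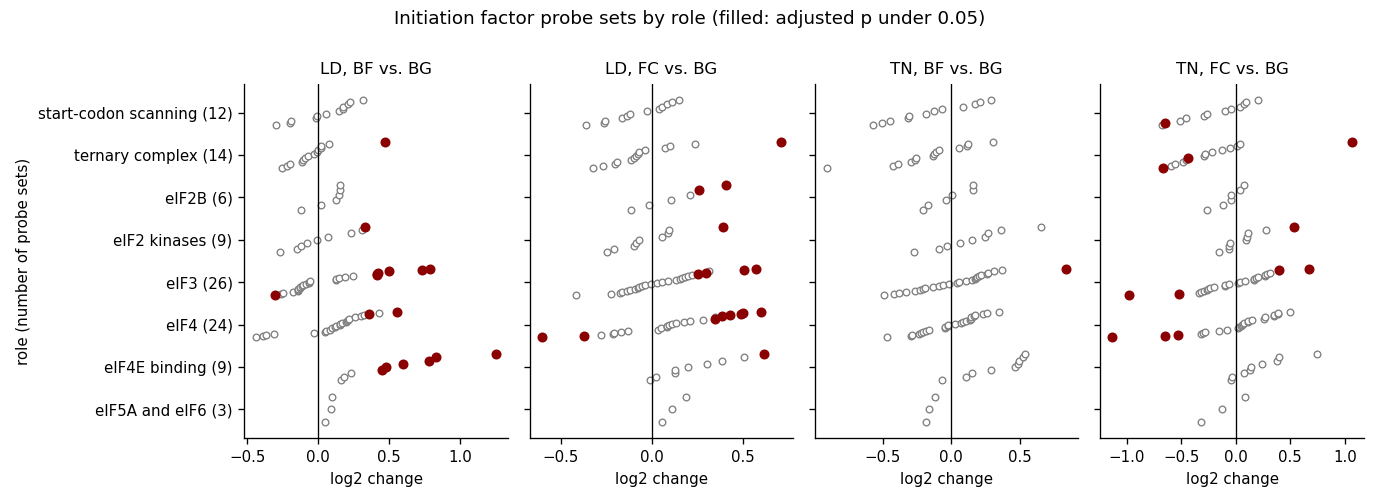
Log2 change of each of the 103 initiation factor probe sets (horizontal axis, log2 units, with its own scale in each panel) by role (vertical axis) in 4 comparisons; filled points have an adjusted p under 0.05. In LD BF vs. BG the 9 probe sets of eIF4E-binding proteins all lie at or above 0.16, and 6 of them are filled, whereas 1 point is filled in TN BF vs. BG.

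Promoters are shown for *Eif3a*, *Eif4ebp2*, *Eif4h*, *Eif4a1* and *Eif4e*, genes with several probe sets on which the results turn. In LD, *Eif3a*, *Eif4ebp2* and *Eif4h* had probe sets that rose both in BF vs. BG and in FC vs. BG. *Eif4a1* set the muscles apart, and *Eif4e* is the cap-binding partner of the 4E-BPs. RefSeq (GRCm38.p6) gave a promoter for 34 of the 42 genes, and none is shown for *Eif4ebp1*. The 250 bases before the start were searched on both strands for the letters CACGTG (the E-box that MYC and USF factors bind), GTAAACA (a FoxO motif) and TGATGNNAT (a motif of ATF4 with its partners). The E-box was held by 7 of the 34 genes (*Eif1b*, *Eif3f*, *Eif3k*, *Eif4a1*, *Eif4e*, *Eif4h* and *Eif5a*), or by 9 of 47 promoters (19.1%), beside 6.02% of 32851 mouse promoters of this length. GTAAACA was held by *Eif2s3y* alone (all promoters 3.17%) and TGATGNNAT by 0 of 34 (all promoters 3.17%). The stretches below run 5′ to 3′, with E-boxes in capitals. *Eif3a* (chr19:60790694-60790943, minus strand) and *Eif4ebp2* (chr10:61452670-61452919, minus strand) hold none of the 3 motifs in these windows, *Eif4a1* (chr11:69672424-69672673, minus strand) and *Eif4h* (chr5:134639410-134639659, minus strand) each hold 1 E-box, and the *Eif4e* start shown (chr3:138527018-138527267, plus strand) holds 2. Another *Eif4e* start (chr3:138525941-138526190, plus strand), not shown, holds none of the 3 motifs. Nor do the windows of *Eif4b* and *Eif4g3*, which are not shown either. A match describes the letters and is not a binding site.
Eif3a: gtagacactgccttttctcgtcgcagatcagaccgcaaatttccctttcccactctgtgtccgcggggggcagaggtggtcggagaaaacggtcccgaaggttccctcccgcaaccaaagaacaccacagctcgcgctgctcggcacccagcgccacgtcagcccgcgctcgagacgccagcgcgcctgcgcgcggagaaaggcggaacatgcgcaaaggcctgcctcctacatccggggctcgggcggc
Eif4ebp2: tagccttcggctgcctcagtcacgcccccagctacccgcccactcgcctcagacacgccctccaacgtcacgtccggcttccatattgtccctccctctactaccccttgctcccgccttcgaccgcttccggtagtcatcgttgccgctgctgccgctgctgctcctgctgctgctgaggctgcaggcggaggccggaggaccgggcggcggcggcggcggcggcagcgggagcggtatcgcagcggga
Eif4a1: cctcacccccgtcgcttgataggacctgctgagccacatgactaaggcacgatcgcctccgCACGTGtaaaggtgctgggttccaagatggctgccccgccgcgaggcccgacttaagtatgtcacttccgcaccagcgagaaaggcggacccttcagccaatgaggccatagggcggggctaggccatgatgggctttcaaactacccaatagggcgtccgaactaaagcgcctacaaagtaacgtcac
Eif4h: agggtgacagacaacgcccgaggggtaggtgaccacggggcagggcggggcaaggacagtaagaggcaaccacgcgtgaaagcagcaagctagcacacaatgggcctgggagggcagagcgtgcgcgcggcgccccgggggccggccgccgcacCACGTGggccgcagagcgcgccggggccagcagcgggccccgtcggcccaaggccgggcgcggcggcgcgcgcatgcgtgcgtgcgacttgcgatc
Eif4e: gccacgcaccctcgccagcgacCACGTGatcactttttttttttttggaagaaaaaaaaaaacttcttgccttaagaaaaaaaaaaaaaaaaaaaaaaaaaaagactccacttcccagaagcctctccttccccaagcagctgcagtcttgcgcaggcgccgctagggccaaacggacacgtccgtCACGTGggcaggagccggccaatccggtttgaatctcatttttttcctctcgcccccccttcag

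The eIF4E-binding proteins held the largest change. *Eif4ebp1*, which encodes 4E-BP1, was measured by 3 probe sets. Probe set 1417563_at read 7.51, 7.81, 7.54, 7.985 and 7.49 in the 5 BF LD samples. It read 6.89, 6.13, 6.45, 6.499 and 6.10 in BG and 6.68, 6.98, 6.84, 6.40 and 6.68 in FC. Every BF sample thus lay above every sample of both ground groups, which overlapped each other. The log2 change in BF vs. BG was 1.25 (SE 0.149, adjusted p = 2.81e-05), a 2.385-fold increase and the only member change of more than 2-fold in this comparison, beside 0.424% of all probe sets past both thresholds. In BF vs. FC it was 0.95 (SE 0.149, adjusted p = 0.000851), and in FC vs. BG 0.30 (adjusted p = 0.212).

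The other *Eif4ebp1* probe sets rose as well. 1417562_at read 10.64, 10.56, 10.72, 10.82 and 10.41 in BF LD against 10.05, 9.77, 9.42, 9.595 and 10.39 in BG. Its 5 FC samples read 9.94, 9.68, 10.04, 9.49 and 10.04, again below all of BF. The increase was 0.78 (SE 0.148, adjusted p = 0.002) over BG and 0.79 (SE 0.148, adjusted p = 0.0038) over FC. For 1434976_x_at, a probe set type that can also bind related transcripts, the values were 10.80, 11, 11.32, 11.13 and 10.73 in BF and 10.27, 9.985, 9.66, 9.93 and 10.99 in BG, which overlapped through BG replicate 5. It rose by 0.83 (SE 0.178, adjusted p = 0.00513) over BG, and by 1.03 without that array (adjusted p = 5.35e-05). In FC vs. BG neither of these probe sets passed, with log2 changes of −0.01 and 0.13. The 3 calls in BF vs. BG held whichever single array was left out. Of the 3 in BF vs. FC, that of 1434976_x_at (0.70, adjusted p = 0.0275) was lost without BF 2, BF 3, BF 4, FC 4 or FC 5, with an adjusted p of up to 0.078.

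*Eif4ebp2*, a second gene of the same family, had 5 probe sets. Probe set 1417084_at read 10.22, 10.23, 10.13, 9.91 and 10.09 in BF LD and 9.39, 9.39, 9.29, 9.20 and 10.33 in BG. BG replicate 5 lies above all of BF, and the other 4 BG values lie below. The log2 change was 0.60 (SE 0.170, adjusted p = 0.0287) with that array and 0.80 (SE 0.128, adjusted p = 0.000282) without it. Of the others, 1436158_at rose in BF vs. BG by 0.48 (adjusted p = 0.0406) and 1437733_at by 0.45 (adjusted p = 0.0254), whereas 1455575_at and 1456613_at did not pass, with changes of 0.23 and 0.18. The call of 1417084_at was lost without any 1 of BF 1, 2, 3 and 5 and BG 1 to 4 (adjusted p of up to 0.0798), that of 1436158_at without any 1 of BF 1, 3, 4 and 5 and BG 1 to 4 (up to 0.12), and that of 1437733_at without any 1 of BF 3 and 5 and BG 1, 3 and 4 (up to 0.0683).

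In FC vs. BG of LD, 1 of the 5 *Eif4ebp2* probe sets rose. 1437733_at read 9.02, 9.31, 9.16, 8.72 and 8.71 in FC, all above the BG values of 8.35, 8.42, 8.295, 8.16 and 8.59, and rose by 0.62 in FC vs. BG (SE 0.125, adjusted p = 0.00498). The log2 change of 1417084_at in FC vs. BG was 0.51 (adjusted p = 0.0636), and 0.71 without BG replicate 5 (adjusted p = 0.0013). In BF vs. FC the changes of the 5 probe sets ran from −0.17 to 0.16, and 0 passed (0 at an unadjusted p under 0.05). Since BF vs. BG and FC vs. BG share the BG arrays, these values stand side by side only. *Eif4enif1*, which encodes the eIF4E transporter 4E-T, did not pass, with 0.16 in BF vs. BG (adjusted p = 0.231) and 0.20 in FC vs. BG.

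**Figure D2:**
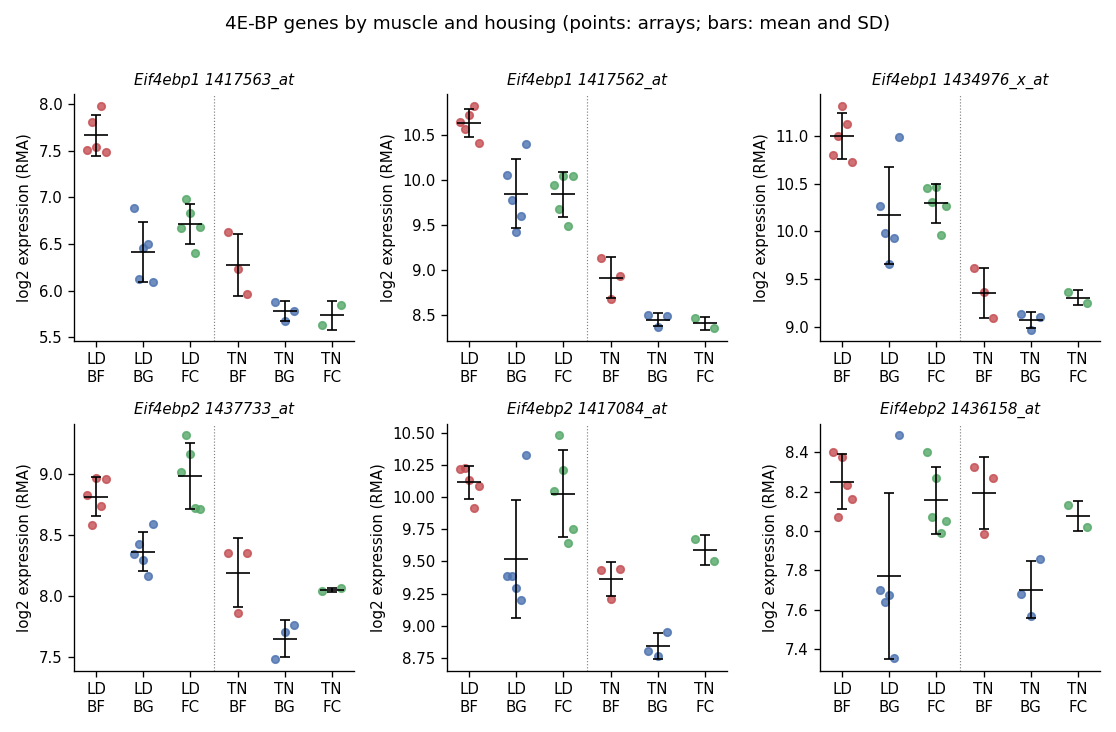
Log2 expression (vertical axis, RMA) of 3 *Eif4ebp1* and 3 *Eif4ebp2* probe sets in every array by muscle and housing; points are arrays and bars are the group mean and SD. For *Eif4ebp1* 1417563_at the 5 BF LD points lie from 7.49 to 7.99, above all BG and FC points, and for *Eif4ebp2* 1417084_at the BG LD replicate at 10.33 stands above the others.

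In TN the *Eif4ebp1* changes in BF vs. BG were also positive, but did not pass. Probe set 1417563_at read 6.62, 6.23 and 5.96 in BF, 5.88, 5.67 and 5.78 in BG and 5.63 and 5.85 in FC. The BF samples lay above all 5 ground samples, and the change in BF vs. BG was 0.49 (SE 0.193, 95% confidence interval 0.09 to 0.89, adjusted p = 0.212). For 1417562_at and 1434976_x_at it was 0.46 and 0.29. In BF vs. FC of TN the changes of the *Eif4ebp1* probe sets ran from 0.0528 to 0.535, and 0 passed. The difference between the muscles in the change in BF vs. BG, 0.76 for 1417563_at (SE 0.244, interval 0.26 to 1.265), was the largest among the members and had an adjusted p of 0.213. *Eif4ebp2* changed by 0.52, 0.49 and 0.54 in TN BF vs. BG at the 3 probe sets that rose in LD (adjusted p from 0.109 to 0.252). In FC vs. BG of TN, 1417084_at read 9.67 and 9.51 in FC and 8.805, 8.76 and 8.95 in BG, a change of 0.75 that did not pass (adjusted p = 0.0567).

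The largest subunit of eIF3, *Eif3a*, rose at all 4 of its probe sets in LD BF vs. BG. 1448425_at read 11.73, 11.71, 12.03, 11.84 and 11.84 in BF and 11.30, 11.48, 11.26, 11.29 and 11.33 in BG. Its FC samples, at 11.42, 11.58, 11.60, 11.65 and 11.68, lay below all of BF and overlapped BG. The increase over BG was 0.50 (SE 0.0739, adjusted p = 0.000275). For 1416659_at, 1416660_at and 1416661_at it was 0.42, 0.73 and 0.79 (adjusted p = 0.00179, 0.00118 and 0.000839), and the BF and BG arrays did not overlap at any of the 4. All 4 measure the same gene in the same arrays, and the share of all probe sets without overlap was not counted. The 4 calls held whichever array was left out.

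The 4 *Eif3a* probe sets disagreed on the ground groups. In FC vs. BG of LD, 1416659_at, 1416661_at and 1448425_at rose by 0.30, 0.57 and 0.25 (adjusted p = 0.0209, 0.0107 and 0.0356), whereas 1416660_at changed by −0.05 (SE 0.128, adjusted p = 0.849). The call of 1416659_at was lost without BG 1, FC 2 or FC 3 (adjusted p of up to 0.0683) and that of 1448425_at without BG 1, BG 3, BG 4 or any 1 of FC 2 to 5 (up to 0.0806). 1416660_at read 8.75, 8.365, 8.71, 8.76 and 8.79 in BF, 8.002, 8.047, 8.001, 7.856 and 7.807 in BG and 7.78, 8.11, 7.45, 8.07 and 8.05 in FC. Here BF stood above both ground groups, and BF vs. FC gave an increase of 0.78 (SE 0.128, adjusted p = 0.00128). The same probe set gave the only member call in TN BF vs. BG, 1 of 103 beside 0.826% of all probe sets (0.354% higher and 0.473% lower, and 0.221% past both 2-fold and the adjusted p). An unadjusted p under 0.05 was held there by 27 members, beside 3492 of all 22626 probe sets. Probe set 1416660_at read 8.47, 8.10 and 8.70 in BF TN, 7.36, 7.68 and 7.715 in BG and 7.43 and 7.55 in FC. The increase was 0.84 over BG (SE 0.166, adjusted p = 0.0185) and 0.94 over FC (SE 0.185, adjusted p = 0.00746). The count in TN BF vs. BG was 0 without BF 1, BF 3, BG 1 or BG 2 and 7 without BF 2. With the replicate number as a block, 2 members passed in TN BF vs. BG, beside 2.35% of all probe sets: *Eif3a* 1416660_at (SE 0.1708, adjusted p = 0.0194) and *Eif2s3y* 1417210_at, another gamma subunit gene of eIF2, which then fell by 0.91 (SE 0.2009, adjusted p = 0.0285). The difference between the muscles for *Eif3a* 1416660_at was −0.11 (SE 0.210, adjusted p = 0.869).

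**Figure D3:**
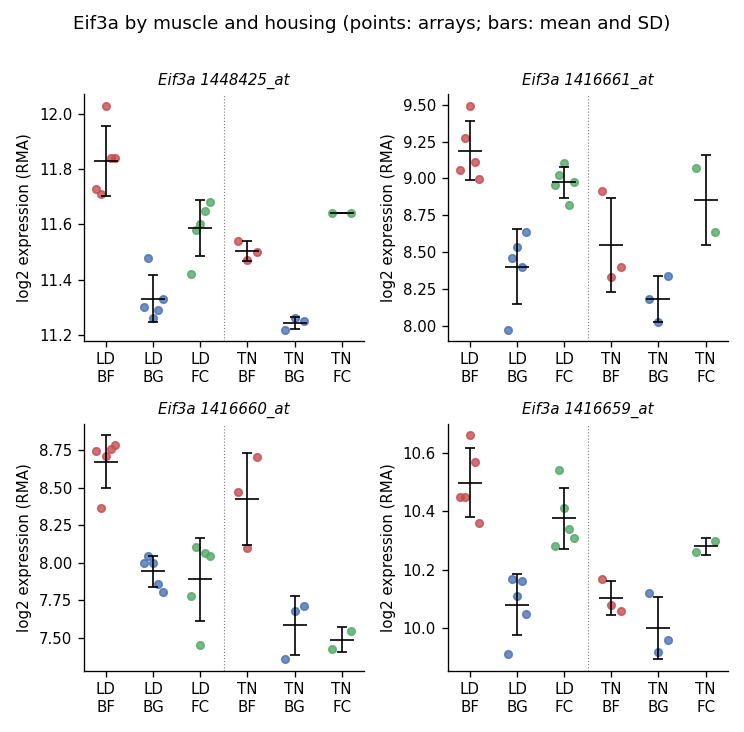
Log2 expression (vertical axis, RMA) of the 4 *Eif3a* probe sets in every array by muscle and housing; points are arrays and bars are the group mean and SD. In LD the BF points lie above the BG points in each panel, and for 1416660_at the FC points overlap those of BG while for 1416661_at they lie above BG.

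Among the other eIF3 subunits, 3 probe sets passed in LD BF vs. BG, and they were named after their values were seen. *Eif3c* 1415859_at rose by 0.42 (SE 0.1125, adjusted p = 0.0216), or by 0.55 without BG replicate 5, which at 11.31 lay far above the 10.57–10.75 of the remaining BG samples. Its call was lost without BF 3, BG 1, BG 2 or BG 4, with an adjusted p of up to 0.067. The other 3 *Eif3c* probe sets did not pass, with changes of 0.12, 0.19 and 0.12. *Eif3d*, whose product can itself bind the cap, rose by 0.41 at 1416100_at (adjusted p = 0.0334), and this call was lost without BF 3, BF 4, BF 5, BG 1, BG 2 or BG 4, with an adjusted p of up to 0.0907. *Eif3i* 1416233_at was the only member that fell. It read 11.52, 11.71, 11.66, 11.66 and 11.60 in BF and 12.09, 12, 11.92, 11.97 and 11.70 in BG, a decrease by 0.30 (SE 0.0747, adjusted p = 0.0124) that held without any single array. The other *Eif3i* probe set, 1448264_a_at, changed by −0.14 (adjusted p = 0.485).

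In the eIF4 group, the scaffold gene *Eif4g3* and 1 of the 3 probe sets of the helicase cofactor *Eif4h* rose in LD BF vs. BG. *Eif4g3* 1426833_at read 10.42, 10.49, 10.44, 10.56 and 10.52 in BF and 9.60, 10.08, 9.84, 9.81 and 10.31 in BG. BF lay above all of BG, with a change of 0.56 (SE 0.118, adjusted p = 0.00459) that held without any single array. The FC samples ranged from 10.13 to 10.67, and *Eif4g3* rose by 0.50 in FC vs. BG (adjusted p = 0.0113). *Eif4h* 1416941_s_at rose by 0.36 in BF vs. BG (SE 0.0982, adjusted p = 0.0248) and by 0.38 in FC vs. BG (adjusted p = 0.0186), and these calls were lost without BF 4, BG 1, BG 2 or BG 4 (adjusted p of up to 0.0855) and without BG 1 or FC 3 (up to 0.0633). Its other probe sets changed by 0.30 and 0.22 in BF vs. BG (adjusted p = 0.122 and 0.152). The cap-binding gene *Eif4e*, named here after its values were seen, had negative changes at all 3 of its probe sets in BF vs. BG, of −0.37, −0.39 and −0.44, and none passed (adjusted p = 0.0997, 0.0519 and 0.153). Without BG replicate 5 they were −0.52, −0.45 and −0.68 and passed (adjusted p = 0.00326, 0.0208 and 0.00152).

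The remaining 2 calls in LD BF vs. BG were small. *Eif2ak4*, the kinase GCN2 that senses uncharged tRNA, read 5.53, 5.24, 5.34, 5.24 and 5.24 in BF against 4.95, 5.10, 5.17, 4.82 and 4.91 in BG. It rose by 0.33 (SE 0.0988, adjusted p = 0.0379), at a level low on the scale of the array. *Eif2s3x*, which encodes the gamma subunit of eIF2, rose by 0.47 at 1421895_at (SE 0.145, adjusted p = 0.0411). The call of *Eif2ak4* was lost without any 1 of BF 1, 3, 4 and 5 and BG 1 and 4 (adjusted p of up to 0.0997), and that of *Eif2s3x* without any 1 of BF 2 to 5, BG 1, 2, 3 and 5 and the TN FC arrays (up to 0.127). The other 2 *Eif2s3x* probe sets changed by −0.0023 and 0.0165. The other eIF2 kinase probe sets had changes from −0.27 to 0.31 in BF vs. BG. Among them were those of *Eif2ak1* (0.31, 0.23 and −0.08), *Eif2ak2* (0.07 and −0.01) and *Eif2ak3* (−0.15, −0.27 and −0.12).

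To see how these genes differed between the ground groups, FC was compared with BG. In LD, 17 of 103 members passed, 15 higher and 2 lower in FC, beside 8.95% of all probe sets (6.79% higher and 2.16% lower), and 0 of the 17 exceeded 2-fold (0.203% of all). Of the 11313 probe sets at or above the median level, fitted alone, 19.6% passed. The member count was 8 without FC 3, 9 without BG 1, 10 without FC 2, 11 without BG 4 and 24 without BG 5, beside 16.2% of all probe sets in the last. Without BG 5, *Eif3c* 1415859_at (0.33, adjusted p = 0.0119), *Eif3d* 1416100_at (0.37, adjusted p = 0.0485), *Eif3f* 1452285_a_at (0.36, adjusted p = 0.0133), *Eif3i* 1416233_at (−0.28, adjusted p = 0.00937), *Eif3m* 1451076_s_at (−0.51, adjusted p = 0.0243), *Eif4e2* 1435803_a_at (0.35, adjusted p = 0.0257), *Eif5* 1454664_a_at (0.27, adjusted p = 0.0321) and 2 *Eif4ebp2* probe sets passed as well, and 2 calls were lost, of *Eif2ak1* 1421901_at (adjusted p = 0.0607) and *Eif2b2* 1437428_x_at (adjusted p = 0.0661). With all arrays, the 4 *Eif4e2* probe sets ran from −0.21 to 0.28. Of the 17 probe sets that passed with all arrays, 6 also passed in BF vs. BG, a comparison with the same BG arrays. Of the roles, eIF4 had 8 of 24, eIF3 4 of 26 and eIF2B 2 of 6 probe sets passed, the last both of *Eif2b2*. The ternary complex had 1 of 14, the eIF4E-binding proteins 1 of 9 and the eIF2 kinases 1 of 9. Scanning factors had 0 of 12 and eIF5A and eIF6 0 of 3. *Eif4b*, an activator of the helicase, rose by 0.60 at 1426378_at (SE 0.1325, adjusted p = 0.00838) and by 0.49 at 1426380_at (adjusted p = 0.00671). 1426380_at read 10.91, 11.29, 10.99, 10.98 and 11.26 in FC, 10.53, 10.90, 10.49, 10.43 and 10.62 in BG and 10.77, 10.75, 10.87, 10.68 and 10.65 in BF. FC lay above all other LD samples. The remaining *Eif4b* probe set, 1426379_at, changed by 0.14 (adjusted p = 0.422). All 3 *Eif4h* probe sets rose, by 0.35 to 0.43, and the calls of 1438554_x_at and 1451521_x_at were lost without BG 1, BG 4 or FC 3 and further arrays, with adjusted p-values of up to 0.102 and 0.0769.

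Elsewhere in FC vs. BG of LD, the eIF3 subunit gene *Eif3b* rose by 0.50 (SE 0.101, adjusted p = 0.0048). Its FC values of 9.44, 9.96, 9.62, 9.45 and 9.595 lay above the BG values of 9.08, 9.22, 9.15, 8.845 and 9.24, and the change in BF vs. BG was 0.24 (adjusted p = 0.132). *Eif2b2*, the beta subunit of the exchange factor, rose at 2 probe sets, by 0.41 (adjusted p = 0.0199) and 0.26 (adjusted p = 0.0473). Both are of the x_at type, which can also bind related transcripts. *Eif2ak1* 1421901_at rose by 0.39 (SE 0.117, adjusted p = 0.0408), while the 3 probe sets of this gene ran from −0.0838 to 0.39. The *Eif2b2* calls were lost without BG 4, FC 2 or FC 3 (adjusted p of up to 0.064) and without any 1 of 19 arrays (up to 0.139), and that of *Eif2ak1* without any 1 of BG 1 to 5 and FC 1 to 4 (up to 0.0897). In BF vs. FC of LD, 9 of 103 members passed, 8 higher and 1 lower in BF, beside 3.66% of all probe sets (2.06% higher and 1.60% lower), and 0 exceeded 2-fold (0.331% of all). They were the 3 *Eif4ebp1* probe sets, *Eif3a* 1416660_at, 2 of *Eif4a1*, *Eif2s2* 1441023_at, *Eif2s3x* 1421895_at and *Eif5b* 1434605_at. *Eif5b*, which joins the ribosomal subunits, rose by 0.45 at this probe set (adjusted p = 0.0215) and did not pass in BF vs. BG (0.32, adjusted p = 0.069) with BG replicate 5 included. In BF vs. FC the 3 *Eif5b* probe sets ran from −0.0479 to 0.451. Its call was lost without BF 3, BF 4 or FC 3 (adjusted p of up to 0.0682), and that of *Eif2s3x* (0.54, adjusted p = 0.0383) without any 1 of BF 2 to 5 and FC 1 to 4 (up to 0.133).

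*Eif4a1*, the helicase of eIF4F, had low values in the FC groups of both muscles at 1 of its 3 probe sets. Probe set 1430980_a_at read 8.985, 9.29, 8.87, 9.69 and 9.21 in FC LD, against 9.885, 9.67, 9.89, 9.80 and 9.82 in BG and 10.09, 9.70, 10.08, 10.10 and 10.14 in BF. It fell by 0.60 in FC vs. BG (SE 0.143, adjusted p = 0.0121) and was higher by 0.81 in BF vs. FC (SE 0.143, adjusted p = 0.00241). FC and BG overlapped through FC replicate 4. In TN it read 10.06 and 10.21 in FC, 11.05, 11.66 and 11.09 in BG and 10.92, 11.42 and 11.39 in BF. The 2 FC samples lay below all other TN samples, with a decrease by 1.13 in FC vs. BG (SE 0.207, adjusted p = 0.00219) that was lost without FC 1 (adjusted p = 0.0715). The other probe sets disagreed in size: 1427058_at changed by −0.37 in LD (adjusted p = 0.0195, lost without BG 1, FC 2 or FC 3) and −0.29 in TN (adjusted p = 0.214), and 1434985_a_at by −0.13 and −0.08, with neither passing.

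*Eif2s2*, which encodes the beta subunit of eIF2, had 6 probe sets, and those that passed moved in opposite directions. 1441023_at read 6.36 and 6.42 in FC TN, 5.59, 5.03 and 5.35 in BG and 5.58, 5.29 and 5.455 in BF, and it rose by 1.06 in FC vs. BG (SE 0.193, adjusted p = 0.00209). In LD its FC values of 4.98, 5.71, 5.23, 5.07 and 5.26 lay above all BG and BF samples, with an increase of 0.71 over BG (SE 0.134, adjusted p = 0.00343). Readings of 1441023_at were low in both muscles on the scale of the arrays, whose medians were 6.42–6.61. In TN, 1417712_at and 1448819_at instead fell by 0.44 and 0.67 in FC vs. BG (adjusted p = 0.0412 and 0.0353). The probe sets of this gene therefore gave no single direction for FC vs. BG.

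**Figure D4:**
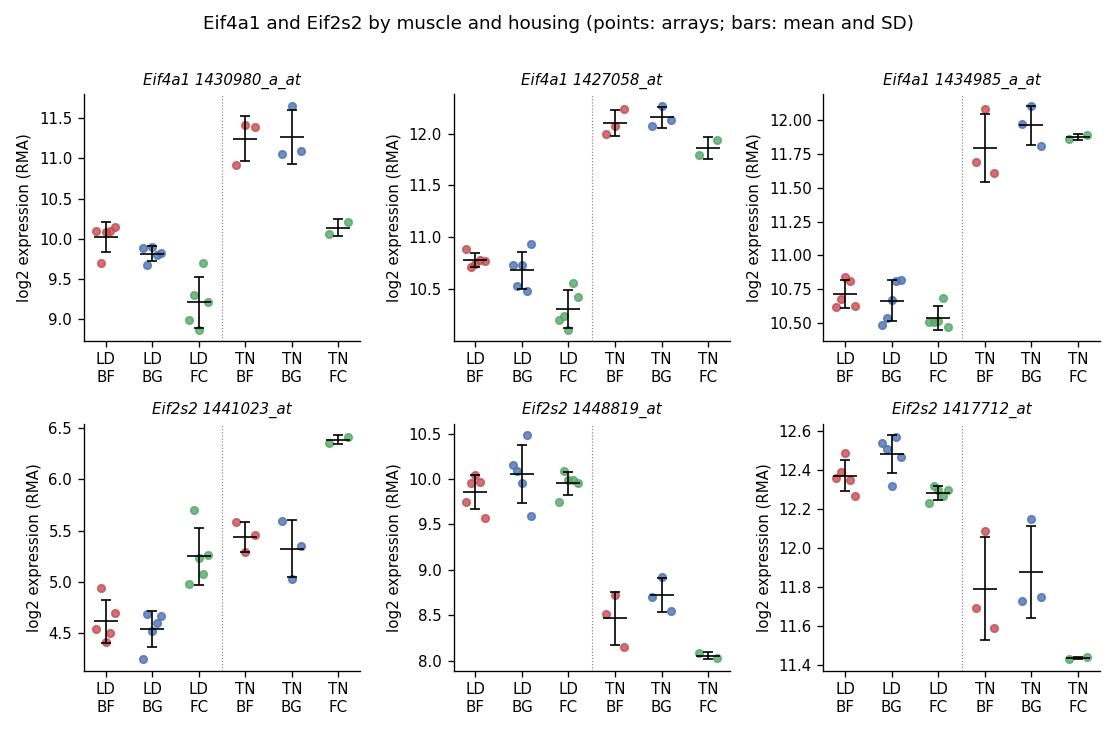
Log2 expression (vertical axis, RMA) of 3 *Eif4a1* and 3 *Eif2s2* probe sets in every array by muscle and housing; points are arrays and bars are the group mean and SD. The FC points of *Eif4a1* 1430980_a_at are the lowest of their muscle apart from 1 LD sample at 9.69, those of *Eif2s2* 1441023_at are the highest of their muscle, and the *Eif4a1* points of TN lie above those of LD at 1427058_at and 1434985_a_at.

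In TN, 12 of 103 members passed in FC vs. BG, 4 higher and 8 lower in FC, beside 9.45% of all probe sets (5.13% higher and 4.33% lower). Over 2-fold were 2 members, *Eif4a1* 1430980_a_at and the low-reading *Eif2s2* 1441023_at, beside 1.35% of all. The count was 1 without FC 1, 4 without FC 2, 2 without BG 2 and 5 without BG 1, where leaving out an FC array leaves 1 sample that is assumed to vary like the other groups, and *Eif2s2* 1441023_at alone passed whichever array was left out. The lower members included *Eif3m* 1451076_s_at (−0.98, SE 0.220, adjusted p = 0.00846), *Eif3e* 1460432_a_at (−0.52, adjusted p = 0.0197), the cap-binding gene *Eif4e* at 1450908_at (−0.65, adjusted p = 0.0285), the helicase gene *Eif4a2* (−0.53, adjusted p = 0.0382) and *Eif1ax* 1449576_at (−0.65, adjusted p = 0.0436). Among the higher members were *Eif3a* 1416661_at (0.67, adjusted p = 0.0299) and 1448425_at (0.40, adjusted p = 0.0212), which had risen in FC vs. BG of LD too, and *Eif2ak1* 1421901_at (0.54, adjusted p = 0.0476). The 3 probe sets of *Eif2ak1* ran from −0.0597 to 0.537. *Eif4e* 1450908_at read 10.37 and 10.42 in FC and 10.98, 11.38 and 10.77 in BG. In BF vs. FC of TN, 4 of 103 passed, 3 higher and 1 lower in BF, beside 2.24% of all probe sets (1.16% higher and 1.08% lower), 1 of them exceeded 2-fold (0.654% of all), and the count was 0 without FC 1 and 1 without FC 2. Besides *Eif3a* 1416660_at these were *Eif4a1* 1430980_a_at (1.11), *Eif2s3x* 1421895_at (0.90) and *Eif2s2* 1441023_at (−0.95).

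To ask whether the change in BF vs. BG differed between the muscles, the difference itself was tested. By the test of limma 0 of 103 members passed, beside 0.172% of all probe sets (0.159% higher, 0.0133% lower and 0.0884% past 2-fold as well). An unadjusted p under 0.05 was held by 13 members, beside 2731 of all 22626 probe sets. Without BG replicate 5 of LD, 4 members passed, beside 1.66% of all probe sets. They were the start-codon factor *Eif5* at 1454663_at (0.77, adjusted p = 0.0401) and 1454664_a_at (0.59, adjusted p = 0.0297), *Eif4e2* 1435803_a_at (0.69, adjusted p = 0.0383) and *Eif4g2* 1415863_at (0.54, adjusted p = 0.0452), each with the more positive change in LD. With all arrays, the changes of these 4 were 0.60, 0.41, 0.62 and 0.44. The 4 probe sets of *Eif4e2* then ran from −0.342 to 0.62 and the 4 of *Eif4g2* from −0.0555 to 0.437. The largest change in TN BF vs. BG was −0.91 at *Eif2s3y* 1417210_at (SE 0.302, adjusted p = 0.144), which read 7.985, 8.76 and 7.08 in BF and 8.61, 9.24 and 8.69 in BG.

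The muscles themselves differed at many members. Over the ground mice (BG and FC, each housing weighted alike), 66 of 103 members passed in LD vs. TN, 42 higher and 24 lower in LD, a share of 64.1% beside 64.3% of all probe sets (41.4% higher and 22.9% lower). Over 2-fold were 8 members, beside 13.9% of all. *Eif2s2* 1448819_at had the largest difference, 1.61 (SE 0.120, adjusted p = 7.03e-11). It ranged from 9.60 to 10.48 in BG and FC LD and from 8.03 to 8.92 in BG and FC TN. Of the 6 *Eif2s2* probe sets, 5 passed higher and 1 lower in LD, with differences from −0.962 to 1.61. All *Eif4ebp1* probe sets were higher in LD, by 0.81, 1.41 and 1.05, as were 4 of the 5 of *Eif4ebp2*, and *Eif4g3* was higher by 1.09 (SE 0.104, adjusted p = 4.45e-09). The call of *Eif4ebp2* 1456613_at was lost with the replicate number as a block and on leaving out some single arrays.

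Lower in LD were all 3 probe sets of eIF5A and eIF6. *Eif6*, whose product keeps the large ribosomal subunit apart from the small one, differed by −1.57 (SE 0.114, adjusted p = 4.34e-11), with BG and FC values of 8.66–9.45 in LD and 10.43–10.69 in TN. The helicase paralogs went opposite ways: *Eif4a1* differed by −1.52, −1.19 and −1.31 at its 3 probe sets, and *Eif4a2* 1450934_at by 0.74 (SE 0.0976, adjusted p = 7.47e-07). Of the eIF2 kinases, *Eif2ak1* was higher in LD at 2 of 3 probe sets (0.93 and 0.87), whereas those of *Eif2ak3* disagreed (0.91, 0.77 and −0.79). Since the TN samples held the epithelial profile given above and LD did not (median difference −6.95 over the 8 epithelial genes), and LD the higher level of fat cell genes (8.08–11.6 per array over 4 of 5 listed, against 5.67–7.85 in TN), the part of these cells in the differences was not tested.

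**Figure D5:**
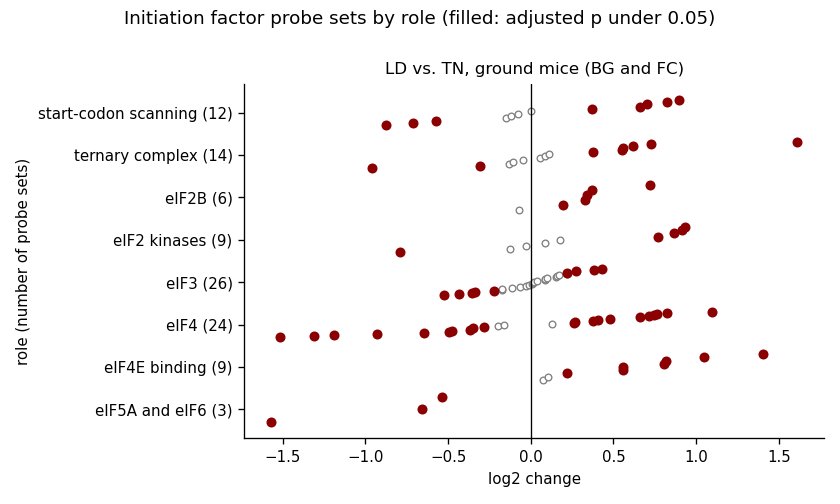
Log2 difference between LD and TN over BG and FC mice for the 103 probe sets (horizontal axis, log2 units, positive where LD is higher) by role (vertical axis); filled points have an adjusted p under 0.05. The 9 probe sets of eIF4E-binding proteins lie above 0, the 3 of eIF5A and eIF6 lie at −0.54 or below, and those of eIF4 spread from −1.52 to 1.09.

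The partners of the initiation factors were counted over lists of other genes, with the brightest probe set of each. Of 22 measured genes (27 listed) of mTORC1 and its upstream inputs, 4 rose and 0 fell in LD BF vs. BG, beside 10.5% of all 12393 genes, with a median change of 0.16 beside −0.04 over all genes. They were *Sesn1* (1.12, SE 0.130, adjusted p = 2.1e-05) and *Tsc2* (0.31, adjusted p = 0.049), both known as inhibitors of mTORC1, *Gsk3b* (1.09, SE 0.162, adjusted p = 0.000275), a kinase that acts on TSC2 and on eIF2B, and *Mknk2* (0.46, adjusted p = 0.0349), a kinase of eIF4E. In FC vs. BG of LD 5 of the 22 rose, *Tsc2* (0.43), *Rragc* (0.31), *Mtor* (0.40), *Deptor* (0.49) and, named after its value was seen, *Ppm1g* (0.33), beside 10.3% of all genes, and in BF vs. FC 3 rose, beside 3.08%. *Sesn1* was the only one of the 22 whose change in BF vs. BG differed between the muscles (1.15, SE 0.212, adjusted p = 0.0287), beside 0.129% of all genes.

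Of 19 measured genes (20 listed) of the integrated stress response, which follows eIF2 phosphorylation, 3 rose and 2 fell in LD BF vs. BG, where 10.5% of all genes passed. *Chac1* (1.41, SE 0.2875, adjusted p = 0.00356), *Cebpb* (0.77) and *Ppp1r15b* (0.47), a regulatory subunit of the eIF2 phosphatase, rose, and *Ddit3* (−0.74, SE 0.110, adjusted p = 0.00028) and, named after its value was seen, *Nupr1* (−0.65) fell. *Chac1* and *Cebpb* rose in FC vs. BG too, by 0.94 and 0.45. Among 15 measured genes (18 listed) of poly(A) and cap cofactors, 2 rose in BF vs. BG, beside 10.5% of all genes. They were *Abcf1* (0.49) and *Larp1* (0.44), an mTORC1-regulated cap binder. In FC vs. BG 4 rose, among them the same 2 by 0.41 and 0.44, beside 10.3% of all genes. Of 10 measured genes (11 listed) of elongation and termination, *Eef2* (0.41) and *Eef1a2* (0.34) rose and *Eef1e1* (−0.61) fell in LD BF vs. BG, again beside 10.5%. Of the calls over these 4 lists, 7 of 14 in BF vs. BG (*Sesn1*, *Gsk3b*, *Ddit3*, *Cebpb*, *Chac1*, *Ppp1r15b* and *Eef1e1*) and 4 of 14 in FC vs. BG (*Tsc2*, *Shmt2*, *Pabpc4* and *Eef2*) held whichever array was left out. That of *Sesn1* between the muscles was lost without any 1 of LD BF 3 and 4, LD BG 1 to 3, TN BF 3 and TN BG 1 (adjusted p of up to 0.15).

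Marker genes of other cells were measured in the same LD arrays. The 10 measured macrophage genes (11 listed) averaged 7.06–8.72 per array in BF, 7.85–10 in BG and 7.4–8.4 in FC, with the highest in BG replicate 5. Their median change was −0.70 in BF vs. BG (0 of 10 passed, 7 at an unadjusted p under 0.05) and −0.66 in FC vs. BG (1 of 10 passed), or −0.32 and −0.24 without that array. The 6 fibroblast genes had a median change of −0.32 in BF vs. BG and 0 passed (1 at an unadjusted p under 0.05). Of the 5 endothelial genes, 1 rose in BF vs. BG, beside 10.5% of all genes, and 0 passed in FC vs. BG. Their changes in BF vs. BG ran from −0.328 to 0.459, with a median of 0.02. The 4 measured fat cell genes averaged 8.96–11.6 per array in BF, 9.19–10 in BG and 8.08–10.5 in FC, with a median change of 0.67 in BF vs. FC (0 of 4 passed, 1 at an unadjusted p under 0.05) and −0.53 in FC vs. BG (again 0 of 4 and 1). In TN, 4 of 10 muscle fibre genes rose in FC vs. BG, beside 9.9% of all genes, with changes of the 10 from −1.68 to 1.03. The fibroblast genes averaged 10.3–10.5 in BF TN, 10.7–10.8 in BG and 11.2–11.3 in FC, and 0 of the 6 passed in any TN comparison of housing (3 at an unadjusted p under 0.05 in BF vs. FC, 2 in BF vs. BG and 0 between the ground groups), with a median change of 0.43 from BG to FC and of −0.90 in BF vs. FC. The part of these cells in the changes of the initiation factors was not tested.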

How the data were processed

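RNA of LD and TN was hybridised to Affymetrix mouse arrays, 23 in all. For each probe set the authors deposited a log2 level, obtained by RMA (background correction, quantile normalization, median polish) in Partek Genomics Suite 6.6. The number of arrays limits the precision. Genes were named from the platform annotation.

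The labels' muscle and housing gave the groups, which were fitted in 1 model of 6 groups with limma 3.58.1 in R 4.3.3 (17 residual and 5.12 prior degrees of freedom). All 22626 probe sets were tested, Benjamini-Hochberg adjustment ran over the whole table, and no filter was applied. The procedure was tested on simulated data. The study's methods name ANOVA at a false discovery rate of 5% and a 2-fold change.

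Nothing in the labels says whether replicates of a group were separate cage groups, so p-values measure the spread between these samples. Named were the 4E-BP and eIF2 kinase genes in all comparisons, up to 3 calls per role and comparison with the smallest adjusted p, the largest change of each comparison, and up to 4 genes per list. Calls given beyond this rule were named after their values were seen. The members and lists were chosen with earlier results of these data known. Replicate numbers come from the sample titles. In TN BF and BG, same-numbered arrays deviated together from their group means (correlations of 0.167, 0.383 and 0.203), so the block is given beside that comparison, whereas in no other comparison did every pair correlate above 0.1. Promoters came from RefSeq (GRCm38.p6). Alternatives were each muscle alone, no moderation, a trended and robust prior, only probe sets at or above the median level, quantile normalization within muscle, median centring, array weights, the replicate number as a block, 1 probe set per gene, and leaving out each array.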

Additional observations from a re-analysis of the deposited data

Results flagged for a closer look

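Among the named probe sets, 9 of 159 LD groups of 5 held an array far from the other 4, where chance gives about 1 in 20. In BG, *Eif4ebp2* 1417084_at read 10.33 in replicate 5 against 9.20 to 9.39 in the others, *Eif2b1* 1460730_at read 9.22 in replicate 5 against 9.51 to 9.59, and *Eif2b2* 1434538_x_at read 9.48 in replicate 4 against 9.75 to 9.82. In BF, *Eif3a* 1416660_at read 8.37 in replicate 2 against 8.71 to 8.79, and *Eif4a1* 1430980_a_at read 9.70 in the same replicate against 10.08 to 10.14. *Eif6* 1427578_a_at read 9.16 in BF replicate 3 against 8.92 to 8.97. In FC replicate 4, *Eif3d* 1416100_at read 9.26 against 9.40 to 9.46 and *Eif4a1* 1434985_a_at read 10.69 against 10.47 to 10.52. *Eif2ak1* 1421901_at read 8.24 in FC replicate 5 against 8.46 to 8.51.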

How the results depend on the processing

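No call of an initiation factor probe set or of a gene of the 4 partner lists reversed in any alternative, and of 2758 recomputed values of initiation factor calls 245 lost their call, 201 of them on leaving out an array. Leaving out single arrays moved the number of members that passed between 9 and 27 in LD BF vs. BG, 8 and 24 in LD FC vs. BG, 6 and 11 in LD BF vs. FC, 0 and 7 in TN BF vs. BG, 1 and 18 in TN FC vs. BG, 0 and 6 in TN BF vs. FC, 0 and 4 in the difference between the muscles and 61 and 69 in LD vs. TN. Weighting the arrays by their spread raised the count from 17 to 32 in LD BF vs. BG, from 9 to 16 in LD BF vs. FC, from 1 to 12 in TN BF vs. BG, from 12 to 28 in TN FC vs. BG, from 4 to 11 in TN BF vs. FC and from 0 to 4 in the difference between the muscles, beside 22.5%, 7.39%, 8.13%, 21.1%, 8.98% and 4.65% of all probe sets. With 1 probe set per gene, which tests 42 members, the counts were 7, 8 and 2 in the LD comparisons (first BF with BG, then FC with BG, then BF with FC), 0, 7 and 0 in those of TN, and 29 in LD vs. TN, beside 10.8%, 11.4%, 2.86%, 0.831%, 10.3%, 0.855% and 66.5% of all genes. With TN fitted alone they were 0 in BF vs. BG and 7 in FC vs. BG, and the probe sets at or above the median level gave 2 in TN BF vs. FC. Of all probe sets at or above that level, 19.8%, 19.6% and 6.82% passed in the LD comparisons, in the order above, and 0.91%, 17.2% and 2.86% in those of TN. Same-numbered deviations correlated between −0.218 and 0.545 in LD, where 7 of 15 arrays were closest to their own number, and between −0.0982 and 0.383 in TN. The fit with the replicate number as a block gave 2 calls in TN BF vs. BG in place of 1, and lost 2 of 90 initiation factor calls, *Eif2b2* 1437428_x_at in LD FC vs. BG (adjusted p = 0.0595) and *Eif4ebp2* 1456613_at in LD vs. TN (0.217, adjusted p = 0.0446 without and 0.118 with the block), which 10 single arrays also ended (up to 0.223). Kept under every alternative were 9 of 17 calls in LD BF vs. BG, 8 of 17 in LD FC vs. BG, 6 of 9 in LD BF vs. FC, 0 of 1 in TN BF vs. BG, 1 of 12 in TN FC vs. BG and 0 of 4 in TN BF vs. FC. Quantile normalization within muscle and fits of each muscle alone were not run for LD vs. TN, and the latter not for the difference between the muscles. Where these values change, the cause was not tested.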
